A study of Mus musculus with 8 samples.

Results

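The 8 genes described here, Irx1, Irx2, Irx3, Irx5, Pou3f3, Lhx1, Pax8 and Osr2, encode transcription factors that pattern the early nephron. They were chosen by name, by taking every row of the 8 expression tables with any of these symbols and summing the transcripts of a symbol, and all 8 were found among 24151 gene symbols. Kidneys came from embryos of ICR mice, an outbred stock, whose mothers were 8 weeks old, were mated at known times and were divided at random. The mothers received either chlorpyrifos (CPF), an organophosphate insecticide, dissolved in DMSO, or an equal volume of DMSO alone. CPF was injected under the skin at 5 mg per kg each day from gestation day 7.5 to 11.5. Embryonic kidney was then sequenced every 2 days, at the stages E12.5 and E14.5 (early) and E16.5 and E18.5 (late), with 1 CPF and 1 DMSO library per stage, so every group of agent and stage is a single library. The labels do not say how many embryos or litters were used for each.

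A nephron forms when progenitor cells of the cap mesenchyme condense, turn into an epithelial vesicle and then into an S-shaped body, whose parts become podocytes, proximal tubule, loop of Henle and distal tubule. Pax8, a paired-box factor, and Lhx1, a LIM homeodomain factor, are switched on as the vesicle forms, and Lhx1 is also made in the ureteric bud. The Iroquois genes encode homeodomain factors of the TALE class and mark the intermediate part of the S-shaped body, which gives rise to the loop of Henle. Pou3f3, also called Brn1, is a POU-domain factor needed for the loop of Henle to form. Osr2 is a zinc-finger factor and the close relative of Osr1, which marks nephron progenitors.

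Positions are from the GENCODE M21 annotation of GRCm38. Irx1 (chr13:71957921-71963723, minus strand) and Irx2 (chr13:72628820-72634198, plus strand) belong to 1 Iroquois cluster, and their start sites are 665097 bases apart. Irx3 (chr8:91798525-91802067, minus strand) and Irx5 (chr8:92357625-92376286, plus strand) belong to the other cluster, with starts 555558 bases apart. Pou3f3 is at chr1:42695768-42703176 on the plus strand and Lhx1 at chr11:84518284-84525535 on the minus strand. Pax8 is at chr2:24420560-24475599 on the minus strand and Osr2 at chr15:35296098-35303305 on the plus strand. All 8 are protein-coding. An annotated transcript on the opposite strand, Gm13415, overlaps the span of Pax8, Irx3os overlaps Irx3, and a sense transcript, AC122898.1, spans Pou3f3. Since no source says that strand was used in counting, reads of overlapping transcripts cannot be told apart from those of these 3 members.

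The bases just upstream of the start are shown for the 4 measured members that have an entry in the RefSeq promoter table of GRCm38.p6, because these members were all highest in the same CPF library. They are 250 bases each, written 5′ to 3′ along the gene's strand and ending 1 base before the RefSeq start, which for Lhx1 is not the GENCODE start given above. Capitals mark CCAAT or its reverse complement ATTGG, the CCAAT box. The windows are chr13:72628570-72628819 on the plus strand for Irx2, chr1:42695518-42695767 on the plus strand for Pou3f3, chr11:84525535-84525784 on the minus strand for Lhx1 and chr2:24475600-24475849 on the minus strand for Pax8.
Irx2: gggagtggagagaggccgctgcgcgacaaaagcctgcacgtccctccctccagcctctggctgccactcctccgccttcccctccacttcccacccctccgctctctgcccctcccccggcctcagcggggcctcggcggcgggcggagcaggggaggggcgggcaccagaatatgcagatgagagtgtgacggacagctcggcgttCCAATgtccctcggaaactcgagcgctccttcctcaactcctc
Pou3f3: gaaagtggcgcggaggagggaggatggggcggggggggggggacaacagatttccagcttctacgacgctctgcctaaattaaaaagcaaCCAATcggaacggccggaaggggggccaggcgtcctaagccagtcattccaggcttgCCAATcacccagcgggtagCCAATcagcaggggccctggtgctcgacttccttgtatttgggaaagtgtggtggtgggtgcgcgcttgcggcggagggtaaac
Lhx1: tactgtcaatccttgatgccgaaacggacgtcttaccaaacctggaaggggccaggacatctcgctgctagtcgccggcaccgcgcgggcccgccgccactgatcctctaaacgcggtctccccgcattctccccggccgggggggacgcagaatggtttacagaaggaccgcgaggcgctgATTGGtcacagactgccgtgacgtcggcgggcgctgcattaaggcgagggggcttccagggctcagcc
Pax8: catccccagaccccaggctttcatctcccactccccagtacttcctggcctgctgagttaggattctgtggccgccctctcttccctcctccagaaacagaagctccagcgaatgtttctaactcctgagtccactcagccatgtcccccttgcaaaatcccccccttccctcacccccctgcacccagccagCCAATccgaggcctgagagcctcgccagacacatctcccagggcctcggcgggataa
Pou3f3 has 3 CCAAT boxes in this window, Irx2, Lhx1 and Pax8 have 1 each, and the Irx3 window has 0. The box was present, on either strand, in 33.8% of 32851 windows of the same length. GTGGGAA, the core bound by the Notch partner RBPJ, was searched on both strands, was found once, in the Irx2 window, and is in 5.4% of all windows. TATAAA (12.4% of windows), the TCF/LEF core ATCAAAG (3.2%), the POU octamer ATTTGCAT (1.6%) and the Iroquois motif ACANNTGT (6.3%) were searched in the same way, and these letters are not in the 5 windows. Irx1, Irx5 and Osr2 were not matched in the table.

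Values are TPM, which are scaled by transcript length and sum to 1000000 in each library, so that levels of different genes can be set side by side. The TPM that 1 read in 1 kb of transcript is worth was estimated from the steps between low values, and was between 0.061 and 0.1052 in the 8 libraries. Between 11714 and 12870 genes reached 1 TPM. The structural RNAs Rpph1 and Rmrp together took 19.3 to 21.8% of TPM in the 4 CPF libraries, and 19.6, 23.6, 31.0 and 41.8% in the DMSO libraries in stage order. Coding transcripts took 72.7 to 73.9% in CPF and 75.1, 69.7, 63.2 and 53.3% in DMSO. The DMSO E18.5 library stands apart in this, and since TPM sum to a fixed total its coding genes divide a smaller share. Of 10 kidney markers, Six2 (8.38 to 82.3 TPM), Wnt4 (11.8 to 41.7 TPM), Foxd1 (9.04 to 128 TPM) and Calb1 (99.5 to 216 TPM) were among those present in all 8 libraries. The podocyte gene Nphs1, at 0 to 25.9 TPM, was at 0 in DMSO E12.5. Cdh16, a tubule marker with 3 transcripts, was listed at 0 to 0.166 TPM. Markers of other organs were present too, and 13 liver genes summed to 182, 4600, 5302 and 1000 TPM in the CPF libraries in stage order, against 13.8, 919, 90.7 and 66.2 TPM in DMSO, with 1 of the 13 at 0 in every library. The 9 adrenal cortex genes summed to 88.0 to 741 TPM in CPF and 54.9 to 120 TPM in DMSO. The 10 gonad and germ cell genes summed to 32.0, 281, 90.7 and 81.8 TPM in CPF and 33.1 to 44.3 TPM in DMSO.

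Irx3 was listed at 0 in all 8 libraries. It has 2 RefSeq transcripts in the files. The 4777 genes with several transcripts had a median of 0.142 TPM against 3.64 TPM for the 19374 genes with 1, so the listed value is not read as a lack of expression. The other 7 members have 1 transcript each and passed the low-value filter, which asked for 1 TPM or more in 2 or more libraries.

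In DMSO, Irx1 was listed at 0.235, 0.860, 9.91 and 6.25 TPM at the 4 stages, and in CPF at 0.784, 1.69, 10.7 and 34.3 TPM. It was thus under 2 TPM at E12.5 and E14.5 with either agent, near 10 TPM in both E16.5 libraries, and far higher in CPF than in DMSO at E18.5. The level at DMSO E12.5 rests on about 7 reads, with a 95% exact Poisson interval of 0.0962 to 0.493 TPM, and that at CPF E18.5 on about 773 reads, 31.9 to 36.8 TPM. These intervals cover counting error only.

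Irx2, its neighbour in the cluster, was listed in DMSO at 0.164, 1.28, 8.16 and 4.27 TPM. In CPF it was at 1.19, 4.85, 11.5 and 25.1 TPM. CPF was the higher of the pair at every stage. At E12.5 about 31 reads in CPF stood against 5 in DMSO, and the counting intervals, 0.815 to 1.70 TPM and 0.0502 to 0.360 TPM, did not overlap.

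Irx5, of the other cluster, had the lowest mean of the 7, although it was above Irx1 and Irx2 in DMSO E12.5 and above Irx1 in CPF E14.5. It was listed at 0.570, 0.246, 3.14 and 2.00 TPM in DMSO and at 0.462, 2.23, 3.47 and 6.18 TPM in CPF. The counting intervals of the agents overlapped at E12.5 and E16.5, and CPF was higher at E14.5, where about 58 reads stood against 6, and at E18.5, where about 144 stood against 80. The E14.5 intervals were 1.70 to 2.90 TPM in CPF and 0.0891 to 0.528 TPM in DMSO.

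Pou3f3 was already present at E12.5. In DMSO it was at 16.3, 17.3, 30.5 and 22.2 TPM, and in CPF at 13.7, 11.1, 22.0 and 58.7 TPM. CPF was the lower of the pair at the first 3 stages and the higher at E18.5.

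Lhx1 had the flattest course. It was at 18.6, 15.8, 18.7 and 11.3 TPM in DMSO and at 14.3, 10.7, 21.6 and 34.9 TPM in CPF. The range over the DMSO libraries was narrow beside that over the CPF libraries, in which E18.5 stood above the rest.

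Pax8 was the most abundant of the 8 in every library. It was at 46.5, 33.5, 71.8 and 50.0 TPM in DMSO and at 29.5, 31.0, 79.7 and 143 TPM in CPF. All 4 libraries of E16.5 and E18.5 were above all 4 of E12.5 and E14.5.

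Osr2 was listed at 4.20, 5.07, 12.3 and 5.05 TPM in DMSO, so that E16.5 stood alone above the other 3. In CPF it was at 4.14, 6.17, 18.8 and 24.1 TPM, where both late stages were high.

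**Figure D1:**
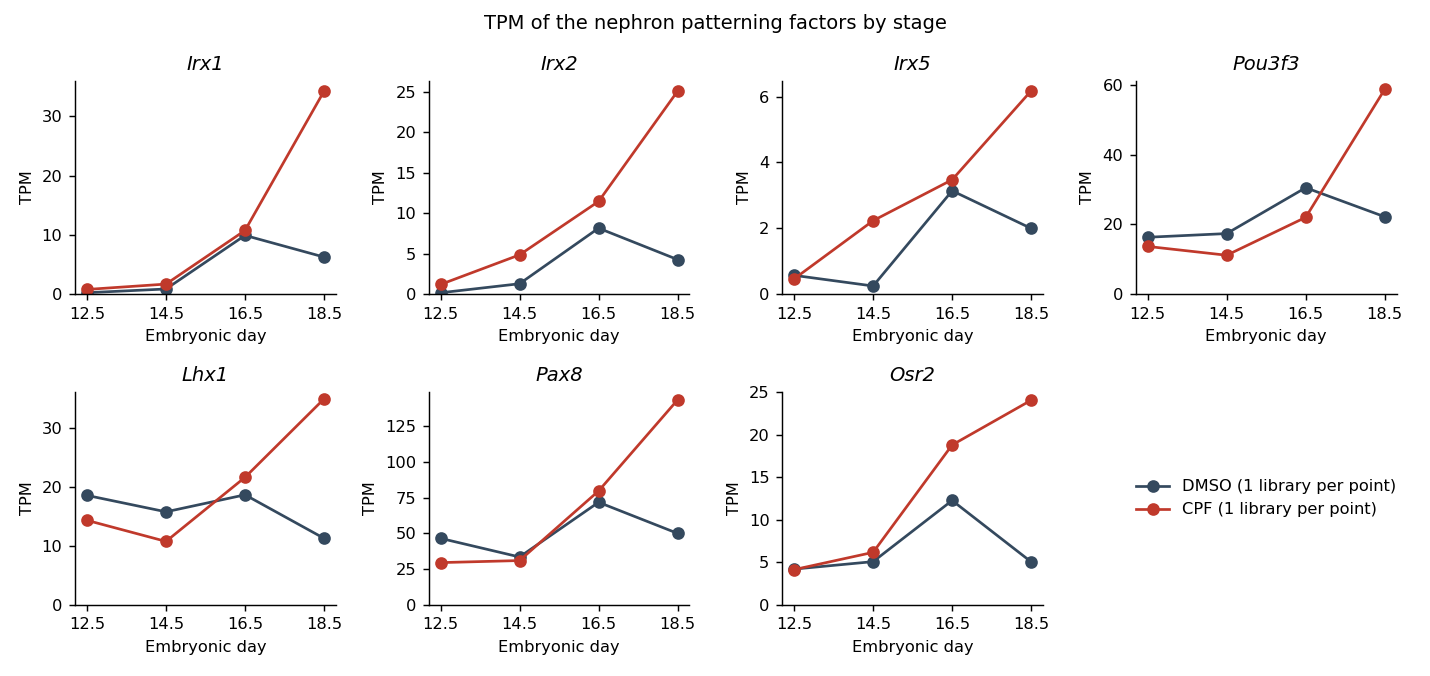
TPM of the 7 measured members (y axis, from 0, a separate scale per gene) by embryonic day (x axis), with 1 library per point and lines joining the libraries of 1 agent. Each gene is highest at E16.5 among the DMSO libraries and at E18.5 among the CPF libraries, with Pax8 reaching 143 TPM and Irx5 6.18 TPM.

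All 7 members were highest at E16.5 in DMSO and at E18.5 in CPF. Lhx1 met this only barely in DMSO, where E16.5 and E12.5 differed by less than counting error. Of all 13677 genes tested, 19.3% were highest at E16.5 in DMSO, 37.8% were highest at E18.5 in CPF and 11.1% were both. From DMSO E16.5 to E18.5, 7 of 7 members were lower, by 1.38-fold in Pou3f3 to 2.43-fold in Osr2, and after rescaling to coding transcripts they were still lower, with log2 differences of -0.96 to -0.21. The median log2 difference of all genes over the same step was -0.33 as deposited and -0.13 after rescaling, so most genes were lower as well. These steps compare 1 library with 1 and have no test.

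Between consecutive stages in DMSO, most members were past 2-fold higher at the step from E14.5 to E16.5. On the scale of log2(TPM + 1) these were 5 of 7 members, Irx1 (2.55), Irx2 (2.01), Irx5 (1.73), Osr2 (1.13) and Pax8 (1.08), beside 4.45% of all genes. From E12.5 to E14.5 in DMSO 0 members were past 2-fold higher (5.89% of genes), although Irx2 was after rescaling to coding transcripts (1.22). In plain TPM, at these low levels, that first step was 3.67-fold for Irx1 and 7.83-fold for Irx2, and the next was 11.5-fold and 6.37-fold. From E16.5 to E18.5 in DMSO 0 members were past 2-fold higher (1.48% of genes) and 1 was past 2-fold lower, Osr2 (-1.13), beside 4.43% of genes. In CPF some members were past 2-fold higher at each step. They were Irx2 (1.42) and Irx5 (1.14) from E12.5 to E14.5, beside 6.71% of genes. From E14.5 to E16.5 it was Irx1 (2.13), Osr2 (1.47), Pax8 (1.34) and Irx2 (1.09), beside 7.93%, and from E16.5 to E18.5 Irx1 (1.59), Pou3f3 (1.38) and Irx2 (1.07), beside 8.44%. Irx2 was thus past 2-fold higher at each of the 3 CPF steps. In plain TPM, Irx1 from E12.5 to E14.5 (2.15-fold) and Lhx1 from E14.5 to E16.5 (2.01-fold) were past 2-fold in CPF as well.

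The first comparison asked whether the members change over kidney development. Irx1 and Irx2 rose from E12.5 to E18.5, and the other 5 did not pass the test. With agent and stage as terms of 1 limma fit on log2(TPM + 1), Irx1 rose by 3.43 ± 0.52 (log2, SE, adjusted p = 0.00168) and Irx2 by 2.88 ± 0.48 (limma adjusted p = 0.00287). As plain TPM, the level was 26.6-fold (Irx1) and 26.1-fold (Irx2) that at E12.5 in DMSO, and 43.7-fold and 21.1-fold in CPF. The log scale with 1 added understates the change of genes this low. Irx5 missed the threshold at 1.61 ± 0.47 (limma adjusted p = 0.0522).

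Among the non-Iroquois members, Osr2 had a difference of 1.25 ± 0.50 (limma adjusted p = 0.141), Pou3f3 of 1.22 ± 0.46 (adjusted p = 0.126) and Pax8 of 1.17 ± 0.44 (adjusted p = 0.13). Lhx1 had 0.28 ± 0.48 (limma adjusted p = 0.765). Thus 2 of 7 members were called higher and 0 lower, where 4.67% of all genes tested were called higher and 3.73% lower, and 6 of 7 members had an unadjusted limma p under 0.05, all of them higher, beside 9.67% of all genes higher and 15% lower. The members' median difference was 1.25, against -0.21 for all genes tested. A test for any difference between the 4 stages also called Irx1 (limma F, adjusted p = 0.00348) and Irx2 (adjusted p = 0.00786), beside 4.45% of all genes, with the adjusted p of the other 5 between 0.119 and 0.853. All 4 late libraries were above all 4 early ones for 3 of 7 members, Irx1, Pou3f3 and Pax8, and for 6.11% of all genes tested.

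The spread in this fit is how the differences vary between stages and agents in single libraries, not between animals. Without the low-value filter neither call remained (limma adjusted p = 0.162 for Irx1 and 0.160 for Irx2), and without the DMSO E18.5 library, an alternative chosen after seeing the data, 5 members were called, Pou3f3 (2.12), Pax8 (2.02) and Osr2 (2.14) with them.

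The course of the related and later genes was uneven. Of 12 relatives of the members 4 were tested, and Osr1, the progenitor-stage relative of Osr2, fell by 2.01 ± 0.38 (log2, SE, limma adjusted p = 0.00645). Irx4 and Irx6, the third genes of the 2 clusters, stayed at or under 0.312 and 0.425 TPM. Pax2, the relative of Pax8 that acts with it in the early kidney, was at 37.1, 30.1, 25.2 and 15.5 TPM in DMSO and at 25.7, 10.5, 16.0 and 26.5 TPM in CPF, with a difference of -0.58 ± 0.46 (limma adjusted p = 0.465).

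Other genes of the forming nephron, listed apart from the members, did not pass the test: 0 of 26 were called between E18.5 and E12.5 by limma, 7 had an unadjusted p under 0.05, and their median difference was 0.04. The most abundant were the cell cycle gene Ccnd1 (-0.29 ± 0.36) and Wt1, a factor of progenitors and podocytes (-0.49 ± 0.34). Genes of the loop of Henle and distal tubule, the parts that Irx1, Irx2 and Pou3f3 are known for, rose in 8 of 14 cases and fell in 0 (limma), among them Tmem52b (5.34 ± 0.49), Bsnd (4.16 ± 0.60) and Pvalb (3.53 ± 0.48), a distal tubule marker. Proximal tubule genes rose in 10 of 12 cases and fell in 0, with Hnf4a, a factor that drives the proximal programme, at 5.76 ± 0.47. Podocyte genes rose in 2 of 9 and fell in 1, collecting duct genes rose in 3 of 9 and fell in 0, progenitor genes rose in 0 of 16 and fell in 6, and stromal genes rose in 0 of 9 and fell in 4. Six2, which keeps nephron progenitors self-renewing, fell by 1.76 ± 0.36 (limma adjusted p = 0.00931). In bulk kidney, fewer cells of a type and less RNA per cell cannot be told apart.

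Ratios of genes within a library do not depend on how TPM are scaled between libraries. Irx1 was 0.504, 2.57, 13.8 and 12% of Pax8 in the DMSO series, and 2.65, 5.45, 13.5 and 23.9% in CPF. Irx2 was 0.352, 3.83, 11.4 and 8.54% of Pax8 in DMSO, and 4.03, 15.7, 14.4 and 17.5% in CPF. Both Iroquois genes thus gained on Pax8 between E12.5 and E16.5 with either agent, and relative to Pax8 they were higher in CPF at 3 of 4 stages (Irx1) and 4 of 4 (Irx2). Lhx1, the vesicle gene, was 39.9, 47.1, 26.0 and 22.5% of Pax8 in DMSO and 48.5, 34.7, 27.1 and 24.3% in CPF, so its share was lower at both late stages than at both early ones. Pou3f3 was between 35.0 and 51.8% in DMSO and between 27.6 and 46.3% in CPF, with no common course. Osr2 was 9.02 to 17.1% in DMSO and 14.0 to 23.6% in CPF, and was the higher in CPF at every stage.

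**Figure D2:**
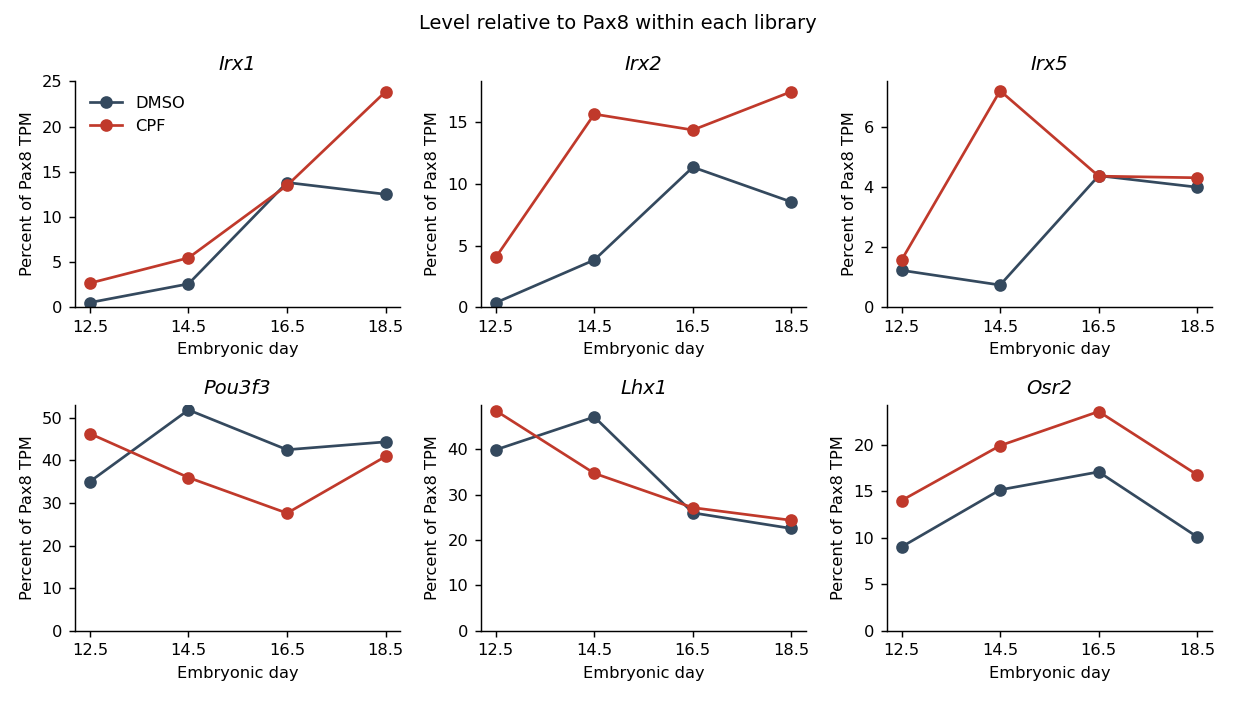
TPM of 6 members as a percent of Pax8 TPM in the same library (y axis, from 0) by embryonic day (x axis), with 1 library per point. Irx1 goes from 0.504 to 12% in DMSO and from 2.65 to 23.9% in CPF, and Lhx1 is lower at the 2 late stages than at the 2 early ones with either agent.

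Against the progenitor gene Six2, Pax8 was 56.5, 66.3, 173 and 143% in DMSO and 64.7, 171, 417 and 1712% in CPF. The vesicle factor was thus above the progenitor factor from E14.5 in CPF and from E16.5 in DMSO. Osr2 as a percent of Osr1 went from 9.91 to 14.2, 50.0 and 40.6% in DMSO, and from 14.2 to 29.4, 69.8 and 482% in CPF. In both ratios CPF was the higher at each of the 4 stages. Each ratio was taken within a library, and setting CPF against DMSO compares 1 library with 1 and has no test. Irx1 as a percent of Irx2 was 143, 67.2, 121 and 146% in DMSO and 65.9, 34.8, 93.7 and 136% in CPF. The listed value was lower in CPF at every stage, but the DMSO E12.5 value rests on about 7 reads over 5, and the E18.5 values were close.

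The second comparison asked whether the members differ between CPF and DMSO. No member passed the test across stages. Irx2 had the largest difference, 1.26 ± 0.34 on the log2 scale (SE, limma adjusted p = 0.173), and was higher in CPF in 4 of 4 pairs of libraries. Irx1 had 0.86 ± 0.37 (limma adjusted p = 0.471). It was also higher in CPF at 4 of 4 stages. CPF was above DMSO at all 4 stages for 13.8% of all genes tested. Osr2 (0.71 ± 0.35, limma adjusted p = 0.567) and Irx5 (0.66 ± 0.33, adjusted p = 0.577) were higher at 3 of 4 stages. Pax8 (0.23 ± 0.31), Lhx1 (0.22 ± 0.34) and Pou3f3 (0.02 ± 0.33) had limma adjusted p of 0.892, 0.904 and 0.992.

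Thus 0 of 7 members were called and 2 of 7, both higher, had an unadjusted p under 0.05. Of all genes tested, limma called 0.154% higher and 0.00731% lower, and at an unadjusted p under 0.05, 8.15% were higher and 1.4% lower. The members' median difference was 0.66, against 0.15 for all genes. The sign for Pax8 and Lhx1 rested on E18.5: without that pair of libraries the differences were -0.20 and -0.22. That for Pou3f3 was -0.43 without the pair and -0.16 after rescaling to coding transcripts. Without the E18.5 pair Irx1 was at 0.39 and Osr2 at 0.27. Leaving out only the DMSO E18.5 library must give the same values, because with stage as a term an unpaired library adds nothing to this difference.

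**Figure D3:**
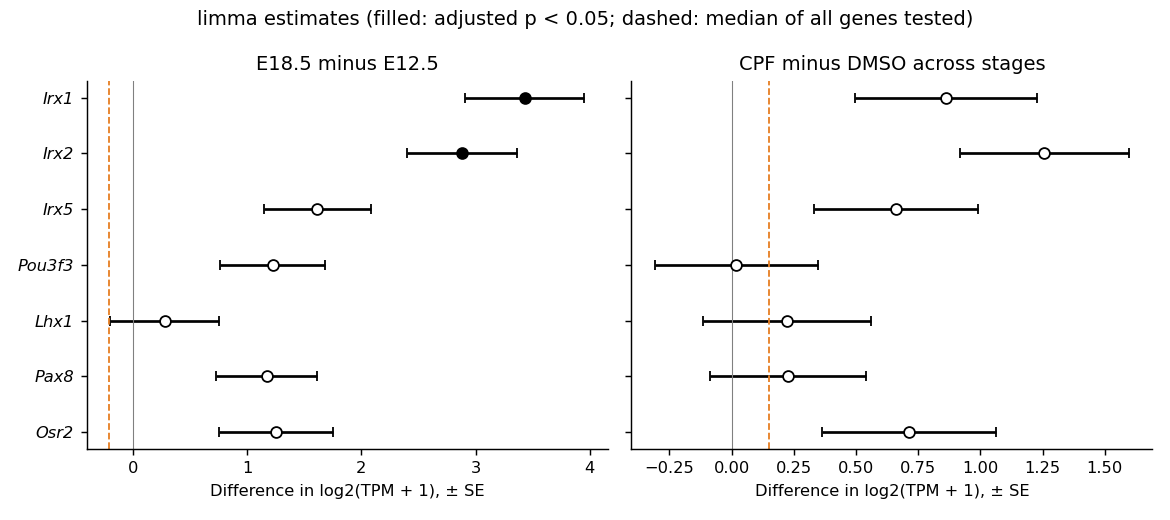
Differences in log2(TPM + 1) with their standard errors from limma (x axis) for 7 members (y axis): E18.5 minus E12.5 on the left, CPF minus DMSO across stages on the right. Filled points passed an adjusted p of 0.05 and the dashed line is the median of all genes tested; Irx1 (3.43) and Irx2 (2.88) are filled on the left and no point on the right.

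By stage, where each value is 1 library over 1 and has no test, the members were mixed at the first stages and all on 1 side at the last. At E12.5, 2 of 7 were higher in CPF, Irx1 (0.53, log2 ratio of TPM + 1) and Irx2 (0.91), beside 40.4% of all genes, and the lowest was Pax8 (-0.64). At E14.5, 4 of 7 were higher, beside 52.6% of all genes. Irx2 (1.36) and Irx5 (1.37) were past 2-fold higher and Pou3f3 (-0.60) and Lhx1 (-0.51) were lower. At E16.5, 6 of 7 were higher as deposited (61.8% of all genes) and 3 of 7 after rescaling to coding transcripts, when Irx1 (-0.09), Irx5 (-0.05) and Pax8 (-0.06) changed sign, and Pou3f3 was lower on both scales (-0.45 and -0.66). At E18.5, 7 of 7 were past 2-fold higher as deposited, beside 20.4% of all genes, with log2 ratios from 1.26 (Irx5) to 2.31 (Irx2). At that stage 82.4% of all genes were higher in CPF by any amount. After quantile normalization 3 of 7 were past 2-fold at E18.5, Irx1 (1.67), Irx2 (1.68) and Osr2 (1.42), beside 6.4% of all genes, and the other 4 were between 0.64 (Irx5) and 0.91 (Lhx1).

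In plain TPM the E18.5 ratio of CPF to DMSO was 5.88 for Irx2, 5.48 for Irx1, 4.77 for Osr2, 3.10 for Lhx1, 3.09 for Irx5, 2.87 for Pax8 and 2.65 for Pou3f3. The plain ratio of low genes was also large earlier, at 7.27 for Irx2 and 3.34 for Irx1 at E12.5. At E14.5 it was 9.07 for Irx5 and 3.79 for Irx2. As listed, the widest ratio of Irx2 and of Irx5 was thus not at E18.5. Those ratios divide by DMSO values of about 5 reads (Irx2, E12.5) and 6 reads (Irx5, E14.5). The Irx2 value has a counting interval of 0.0502 to 0.360 TPM, so the order of its ratios is uncertain. Genes past 2-fold higher made up 6.04, 6.18, 7.44 and 20.4% of all genes tested from the first stage to the last, and 0 members were past 2-fold lower at any stage, beside 2.5, 2.16, 3.2 and 2.02% of all genes. Over all genes tested, the ratio had a median of -0.12, 0.03, 0.13 and 0.53 (log2) at the 4 stages, and of 0.14 at E18.5 after rescaling to coding transcripts. Relative to the deposited median at E18.5, Irx2 was higher by 1.78, Irx1 by 1.75, Osr2 by 1.52, Lhx1 by 1.02, Pax8 by 0.97, Pou3f3 by 0.83 and Irx5 by 0.73. After the rescaling, 7 of 7 were still higher and 5 of 7 were past 2-fold, against 10.1% of all genes.

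**Figure D4:**
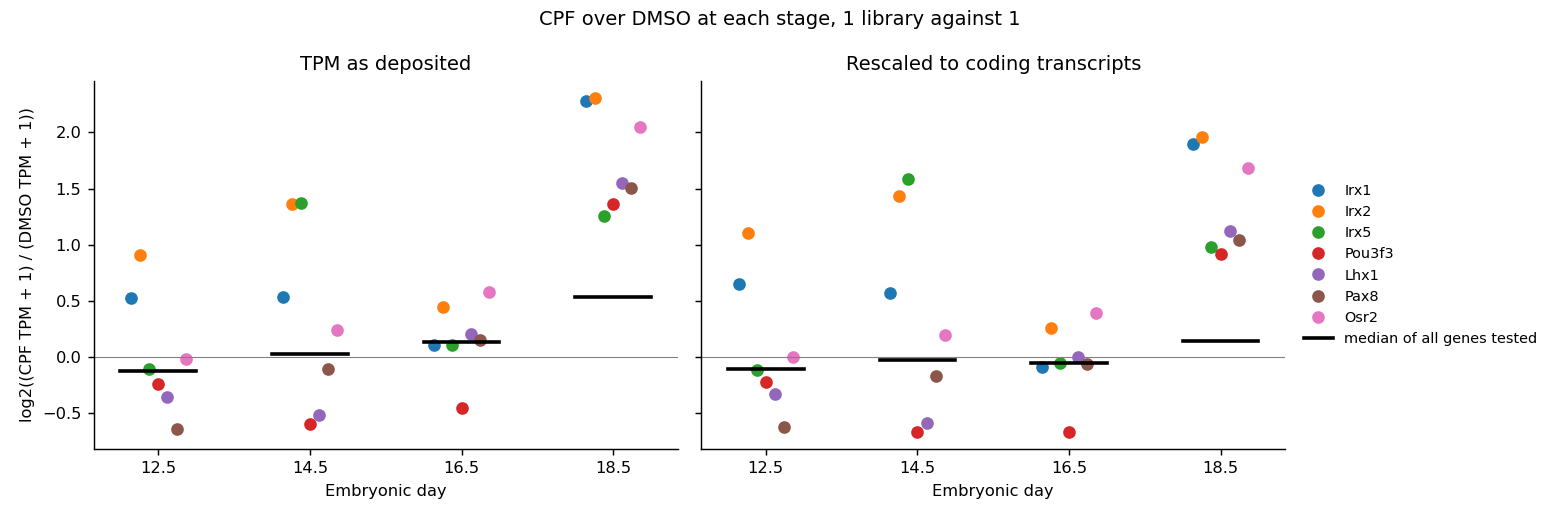
Log2 ratio of CPF to DMSO (y axis, TPM + 1, 1 library over 1) by embryonic day (x axis) for 7 members, as deposited on the left and after rescaling to coding transcripts on the right; black bars are the median of all genes tested. At E18.5 the members lie between 1.26 and 2.31 on the left, above the median of 0.53.

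The 3 measured Iroquois genes had the higher median ratio at E12.5, E14.5 and E18.5 but not at E16.5. At E12.5 the median log2 ratio was 0.53 for Irx1, Irx2 and Irx5 and -0.29 for Pou3f3, Lhx1, Pax8 and Osr2, and at E14.5 it was 1.36 and -0.31. At E16.5 it was 0.11 and 0.18, and at E18.5 it was 2.28 and 1.53. Irx5 was far from its set's median at E12.5 (-0.10) and E18.5 (1.26). At E18.5 it was below Pou3f3 (1.37), Pax8 (1.50), Lhx1 (1.55) and Osr2 (2.05). At E12.5 it was below Osr2 (-0.02) but above Pou3f3 (-0.24), Lhx1 (-0.35) and Pax8 (-0.64). The higher medians at E12.5 and E18.5 thus rest on Irx1 and Irx2. At E14.5 Irx1 (0.53), Irx2 (1.36) and Irx5 (1.37) were all above Osr2 (0.24), the highest of the other set. The difference between these sets was not tested. The other early nephron genes, without the members, had median ratios of -0.44, -0.30, 0.01 and 0.77 from E12.5 to E18.5, with 22 of 26 higher at E18.5, close to the 82.4% of all genes that were. At that stage loop and distal tubule genes had a median of 1.81 (14 of 14 higher), proximal tubule genes of 2.57 (12 of 12), podocyte genes of 1.98 (9 of 9) and progenitor genes of -1.10 (1 of 16). Across stages, limma called 0 genes of these 5 lists between CPF and DMSO. At an unadjusted limma p under 0.05, 2 of 26 early nephron genes and 12 of 16 progenitor genes were lower in CPF. Higher in CPF at that threshold were 3 of 14 loop, 1 of 12 proximal and 1 of 9 podocyte genes. Of all genes tested, 8.15% were higher and 1.4% lower.

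Markers of tissues around the kidney also differed between the libraries, and their part in these results was not tested. Liver and adrenal markers were highest in CPF at E14.5 and E16.5. At CPF E14.5, where Irx2 and Irx5 were past 2-fold higher, the gonad sum was 281 TPM against 33.1 TPM in DMSO, and Amhr2, a receptor gene of the Mullerian duct and gonad, was at 19.6 against 0.864 TPM. At E18.5 the liver sum was 1000 TPM in CPF against 66.2 TPM in DMSO, the adrenal sum 174 against 73.6 TPM and the gonad sum 81.8 against 35.0 TPM. The lung and gut markers Nkx2-1, Sftpb and Sftpc were at 0 TPM in the CPF E18.5 library, and nearly all of that list's 86.5 TPM there came from Vil1 (86.4 TPM), a brush border gene that kidney tubule also expresses. At E12.5, where Irx1 and Irx2 were higher in CPF, erythroid genes summed to 36370 TPM in the CPF library and 7803 TPM in the DMSO library, and skeletal muscle genes to 452 and 114 TPM. At E14.5 the erythroid sum was 17315 against 3979 TPM, and at E16.5 the sympathoadrenal sum was 125 against 20.8 TPM. With the CPF E14.5 and CPF E16.5 libraries left out, an alternative chosen after seeing the data, the CPF minus DMSO difference was 1.41 for Irx1 and 1.61 for Irx2. These estimates rest on the E12.5 and E18.5 pairs alone. The liver sum was higher in CPF in those pairs too, so this alternative is no test of the part of other tissues.

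The third comparison asked whether the course over time differs between the agents. In a limma fit of a straight line per agent, 0 of 7 members and 0 of all genes were called (0% of genes tested, in either direction). The estimated difference in slope, CPF minus DMSO, was above 0 for each member, and for 77.1% of all genes. It was 0.33 ± 0.11 log2 per day for Pax8 (limma adjusted p = 0.136), 0.32 ± 0.10 for Lhx1 (adjusted p = 0.133), 0.33 ± 0.14 for Osr2 (adjusted p = 0.189) and 0.25 ± 0.12 for Pou3f3 (adjusted p = 0.241). The Iroquois genes had the smaller estimates, 0.24 ± 0.18 for Irx1, 0.16 ± 0.16 for Irx2 and 0.14 ± 0.14 for Irx5, with limma adjusted p of 0.429, 0.546 and 0.556. At an unadjusted p under 0.05, 2 of 7 members (Lhx1 and Pax8) had a difference above 0, beside 24.9% of all genes. The difference was above 0 in 24 of 26 other early nephron genes. Without the DMSO E18.5 library the estimates for Irx1 and Irx2 were -0.03 and -0.15.

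The non-coding neighbours that start beside a member were followed next. Lhx1os starts 125 bases from Lhx1 and Pantr1 926 bases from Pou3f3, each on the opposite strand and running away from the gene, without overlap. Lhx1os was at 9.47, 11.3, 13.1 and 15.3 TPM in DMSO and at 6.50, 8.33, 16.1 and 31.5 TPM in CPF. It was the only one of this pair to be highest at E18.5 in DMSO, where Lhx1 was lowest, and its level as a percent of Lhx1 was 51.1, 71.4, 70.4 and 135% in DMSO against 45.4, 77.6, 74.3 and 90.2% in CPF. Pantr1 was at 13.5, 28.9, 23.8 and 21.9 TPM in DMSO and at 13.4, 19.8, 14.2 and 50.9 TPM in CPF. Relative to Pou3f3 it peaked at E14.5 with either agent, at 166% in DMSO and 177% in CPF, and was 64.5 to 99.0% in the other 6 libraries. Crnde, which starts 1505 bases from Irx5 and has 2 transcripts in the files, was at 0.336 to 1.87 TPM in DMSO and 1.16 to 2.49 TPM in CPF. Of 8 listed neighbours 4 were in the files, and limma called 0 of them in any comparison, with 2 at an unadjusted p under 0.05 between E18.5 and E12.5, 0 between the agents and 1 for slope.

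**Figure D5:**
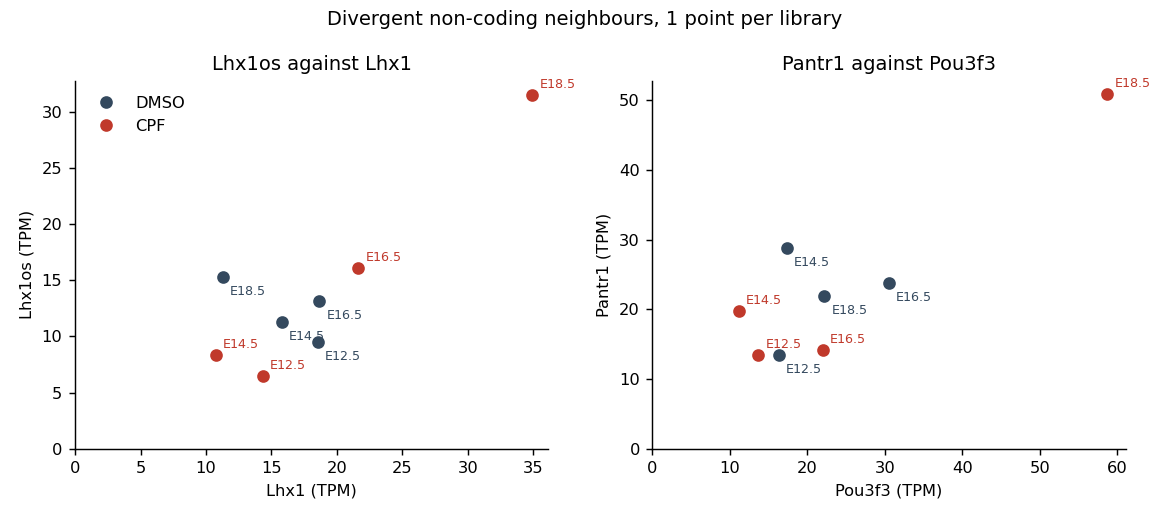
TPM of the non-coding neighbour (y axis) against TPM of the member (x axis), 1 point per library, labelled by stage. The CPF E18.5 library is far from the rest in both panels (34.9 and 31.5 TPM for Lhx1 and Lhx1os, 58.7 and 50.9 TPM for Pou3f3 and Pantr1), and DMSO E18.5 is the only library with more Lhx1os (15.3 TPM) than Lhx1 (11.3 TPM).

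The genes whose pattern was most like each member's were taken by Pearson's r of log2(TPM + 1) over the 8 libraries among genes that averaged 5 TPM or more. The libraries share stage, agent and scaling, and are given as a description. Irx1 was most like Slc44a4 (r = 0.997), a choline transporter gene, then Nell2 (0.989) and Vil1 (0.988). Slc44a4 was at 0.242, 1.14, 8.71 and 7.15 TPM in DMSO and 0.954, 1.82, 10.0 and 37.7 TPM in CPF, close to Irx1 library by library. Irx2 was most like Gas6 (0.992), the ligand gene of the TAM receptors, Kcnd3 (0.989) and Ptgs1 (0.984), and Irx5 most like Gprin3 (0.980), Nebl (0.978) and Bst2 (0.977). The nearest were Kbtbd11 (0.978), Rasgrp2 (0.976) and Ushbp1 (0.976) for Pou3f3, and Pde3a (0.992), Sh3rf1 (0.989) and Parva (0.983) for Lhx1. Tspan15 (0.992), Saraf (0.987) and St6galnac2 (0.984) were nearest to Pax8, and Grb14 (0.981), Lats2 (0.981) and Metrnl (0.975) to Osr2. No member was among the 3 nearest genes of another. Irx5, with a mean of 2.29 TPM, was under the limit of 5 TPM and could not be one. Its r with Irx2 (0.956) was under that of the third gene for Irx2 (0.984). Between members, r over the 8 libraries was highest for Irx1 with Irx2 and Irx2 with Irx5 (0.956 each) and lowest for Irx5 with Lhx1 (0.525), and Pou3f3 with Pax8 had 0.934.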

How the data were processed

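RNA of 8 embryonic mouse kidney libraries was sequenced from total RNA (2 μg of input, per the labels' protocols). Trimmomatic, STAR and mm10 are named, without versions, in the submitters' processing notes; neither the counting step nor its use of strand is given in the sources used here. The authors deposited TPM for 32862 RefSeq transcripts (28523 coding) in each library.

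Transcripts were summed per symbol, and 52 symbols listed as numbers were restored through the RefSeq table. TPM keep no depth. Reads were estimated from the step at which 71.4 to 77.5% of low values were whole within a tolerance of 0.05, against a median of 4.0 to 5.7% over other steps. Read numbers and their 95% exact Poisson intervals are given where the transcript length was usable, which leaves out Pou3f3.

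limma 3.58.1 (R 4.3.3; trend, robust) was run on log2(TPM + 1) of 13677 genes with at least 1 TPM in at least 2 libraries, Benjamini-Hochberg adjusted over all of them, with calls under 0.05. One model held stage, as the block, and agent, with 3 residual degrees of freedom; another held slopes over embryonic day, with 4. The fits were tested on simulated data. A library is the only replicate of its group, so p-values measure the spread between these libraries. Differences within a stage carry no test.

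The members, the gene lists and the tests were chosen with earlier results of these data known. All 8 members were named; of each list up to 4 called genes by p, or else the 2 with the highest mean; and the 3 genes most like each member. A gene that this rule names is not reported here. Crnde, Amhr2, Vil1, Nphs1, Cdh16 and the 3 lung genes at 0 were named after their values were seen. Alternatives were the pseudocount, the filter, quantile normalization, rescaling to coding transcripts, leaving out stages or libraries, and dropping the stage block.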

Additional observations from a re-analysis of the deposited data

Results flagged for a closer look

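The sign of the CPF to DMSO log2 ratio was opposite at an early stage and at E18.5, by at least 0.5 on either side, for 3 members. How many of all genes met this rule was not counted, so it is not shown to be particular to the members. Of all genes tested, 40.4% were higher in CPF at E12.5, 52.6% at E14.5 and 82.4% at E18.5. At each stage 1 library stands against 1, so the difference between those stages was not tested. Pou3f3 had -0.596 at E14.5 (11.1 TPM in CPF, 17.3 TPM in DMSO) and 1.37 at E18.5 (58.7 and 22.2 TPM). Lhx1 had -0.514 at E14.5 (10.7 and 15.8 TPM) and 1.55 at E18.5 (34.9 and 11.3 TPM). Pax8 had -0.639 at E12.5 (29.5 and 46.5 TPM) and 1.50 at E18.5 (143 and 50.0 TPM). The nearest test is that of different slopes over embryonic day, in which limma's adjusted p was 0.241 for Pou3f3, 0.133 for Lhx1 and 0.136 for Pax8. The E18.5 value rests on the DMSO library in which Rpph1 and Rmrp took 41.8% of TPM, against 21.3% in CPF; relative to the median of all genes at that stage it was 0.83 for Pou3f3, 1.02 for Lhx1 and 0.97 for Pax8.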

How the results depend on the processing

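Between CPF and DMSO, 0 of 7 members were called under every alternative run, and for slope 0 members and 0 of all genes were. The 22 genes called across stages became 83 with a pseudocount of 0.1, 98 with a minimum of 5 TPM, 1 after rescaling to coding transcripts, 0 without the filter (1653 at an unadjusted limma p under 0.05), 0 after quantile normalization (1485), 0 with no replicate block for stage (656), and 0 when a straight line over embryonic day replaced the stages (1262). Leaving out 1 pair of libraries gave 25 to 221 (51 without E18.5). Added after seeing the data, 36 were called without the CPF E14.5 and E16.5 libraries, 34 without both pairs of those stages and 52 without the DMSO E18.5 library. The CPF minus DMSO difference reversed for Pou3f3 to -0.16 after quantile normalization and after rescaling. Without the E18.5 pair it reversed to -0.43 for Pou3f3, -0.22 for Lhx1 and -0.20 for Pax8. Leaving out only the DMSO library of that pair must give the same values and is no separate check. Past 2-fold at E18.5 were 7 members as deposited, 5 after rescaling and 3 after quantile normalization.

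Between E18.5 and E12.5, 1149 genes and 2 members were called. Without the filter 0 and 0 were (3797 and 3 at an unadjusted limma p under 0.05), and after rescaling 1439 genes and 4 members. Without the DMSO E18.5 library, which leaves 1 library at E18.5, the difference was 2.12 for Pou3f3, 2.02 for Pax8 and 2.14 for Osr2. Leaving out 1 pair gave 1077 to 1413 genes. Irx5 passed with a pseudocount of 0.1 (limma adjusted p = 0.0499), after rescaling (0.0451) and without the E14.5 (0.0197) or E16.5 pair (0.0475), and Pax8 after quantile normalization (0.0424) and rescaling (0.0492). For any difference between stages, 609 genes and 2 members became 4 and 0 without the filter, 370 genes after quantile normalization, 253 to 1284 genes (952 without E16.5) and 1 to 4 members without 1 pair, and 1062 genes and 5 members without the DMSO E18.5 library. Without the E12.5 pair Irx2 was not called (limma F adjusted p = 0.0914).

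The slope difference reversed for Irx2 with a pseudocount of 0.1 (-0.032) and for Irx5 without the E12.5 pair (-0.029). Without the E18.5 pair it was -0.11 for Irx1, -0.12 for Irx2 and -0.054 for Pou3f3, and without the DMSO E18.5 library -0.034 for Irx1 and -0.15 for Irx2. The cause of these changes was not tested. The slope could not be fitted without both middle stages. Numbers shared between samples beyond the stage are not in the labels, so the stage was the only pairing. At 5 to 7 reads, Irx1 and Irx2 at DMSO E12.5 are limited by depth.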
